A study of Arabidopsis thaliana with 6 samples.

Results

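The genes described here are 98 Arabidopsis thaliana genes whose signal was higher in every ara6-1 array than in any wild-type array, out of 16542 genes that the array table names by 1 probe set row. They were chosen by their measured values in these same 6 arrays. On the log2 intensity scale, the lowest ara6-1 value had to lie above the highest wild-type (WT) value, the ara6-1 mean had to exceed the WT mean by at least 0.4, and the ara6-1 mean had to be at least 4. In all, 102 genes met these numbers. QQS, AT1G66100, SWEET4 and SWEET13 met them and were left out by name, and none of the 5 measured UGT73B genes, also excluded by name, met them. Since the ara6-1 and WT values selected the members, their differences are a description, and no test is read as support for them.

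The study compared whole 14-day-old plants of a RAB5 knockout mutant with the wild type, and its title names starch and sugar homeostasis. The ara6-1 group had 3 arrays, each from plants lacking a working ARA6 gene in the Columbia background, and ara6-1 was the only mutant line measured. The WT group had 3 arrays from Columbia plants with ARA6 intact. After 1 day in the cold at 4 °C, seeds of both lines were raised on MS medium under constant light at 23 °C, and total RNA of the whole plant was hybridized to 1 array per sample. The labels speak of biological replicates but do not state whether plants of different arrays shared a plate or a sowing, so the spread between them may be partly technical. Because whole plants were taken, more cells of a type and more RNA per cell cannot be told apart in any value below.

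ARA6 is a plant-specific member of the RAB5 family, small GTPases that switch between a GTP-bound active and a GDP-bound resting form and direct membrane traffic at endosomes. It sits on a subset of multivesicular endosomes and acts in the route between endosomes and the plasma membrane, next to the conventional RAB5 proteins that serve the route to the vacuole. The mutant was checked by ARA6 itself, which had log2 intensities of 6.98, 7.15 and 6.89 in ara6-1, against 7.99, 8.40 and 8.34 in WT. All ara6-1 arrays lay below all WT arrays, with a mean difference of -1.24.

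The members differed from WT by modest amounts. Their median log2 difference was 0.49, or 1.40-fold, and the range ran from 0.40 to 1.04, or 1.32-fold to 2.05-fold. A difference of at least 0.5 was reached by 47 members, of at least 0.7 by 18 and of at least 1.0 by 2, AT4G01390 and FAMT. Over all named genes the median difference was -0.01. Among all 16542 named genes, 6.95% had non-overlapping groups in the higher direction, and among the 9089 with an ara6-1 mean of at least 4 the share was 10.4%. The whole rule was met by 0.617% of named genes.

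**Figure D1:**
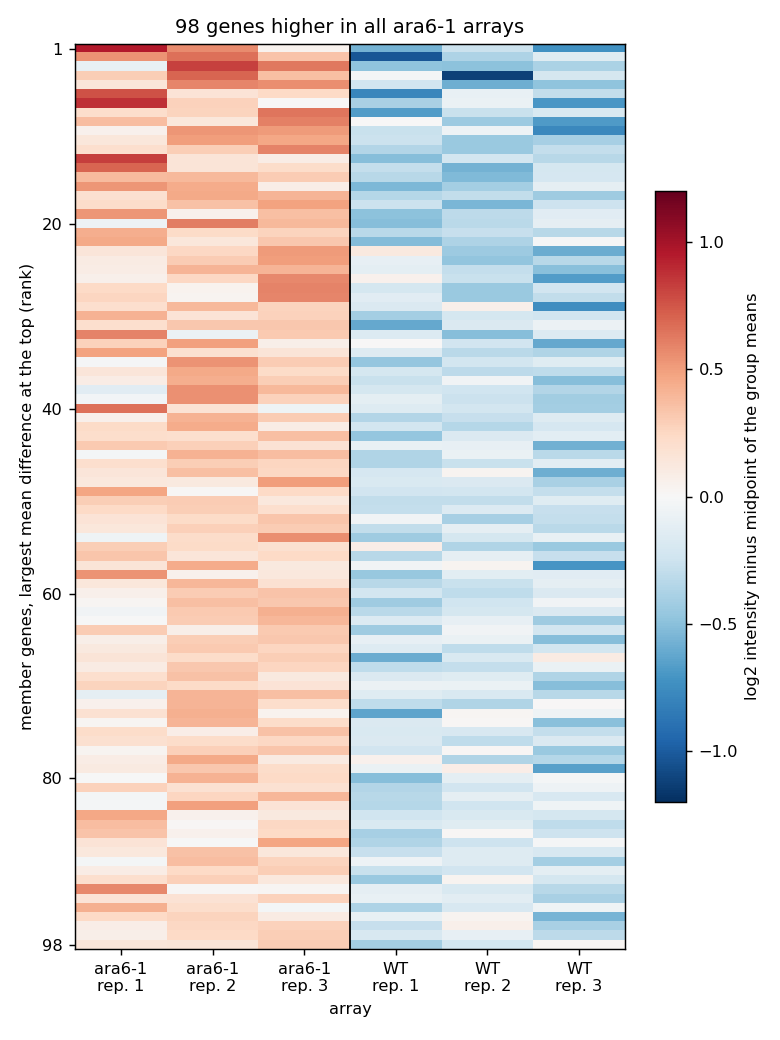
Each row is 1 of the 98 members, ordered by mean difference, and each column is 1 array, with the 3 ara6-1 arrays left of the 3 WT arrays. Colour shows the log2 intensity minus the midpoint of the member's group means; every ara6-1 cell is higher than every WT cell of its row because the rule required it, and the depth of colour varies between arrays of a group.

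Of the 98 members, 14 carry a gene symbol or a synonym beyond the locus name in the RefSeq annotation, and the other 84 are known here by locus only. The 14 annotated members are given by role. Their values were picked for description after the names had been seen. They hold enzymes of small-molecule metabolism, enzymes acting on glucans, lipids and cell wall polymers, proteases and regulators of development.

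FAMT (AT3G44860) encodes a methyltransferase that acts on the carboxyl group of farnesoic acid, an isoprenoid. It had log2 intensities of 5.69, 5.82 and 5.50 in ara6-1, against 4.14, 4.79 and 5.01 in WT, a mean difference of 1.02. Its means were 5.67 ± 0.16 in ara6-1 and 4.65 ± 0.46 in WT (SD, n = 3 each). The ara6-1 arrays lay close together and WT replicate 1 was the lowest of the WT arrays; without it the difference was 0.77. The neighbouring locus AT3G44870 had a difference of -0.41, with a mean of 1.74 in ara6-1 and 2.14 in WT, both near the low end of the array signal.

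A pair of the annotated members belong to the UGT family, enzymes that attach sugars to small molecules. UGT72E1 (AT3G50740), which glucosylates aldehyde precursors of lignin, had 7.81, 7.35 and 7.58 in ara6-1, against 7.10, 7.12 and 7.05 in WT, a log2 difference of 0.49. UGT85A5 (AT1G22370) had 4.58, 4.44 and 4.71 in ara6-1, against 4.18, 4.17 and 4.07 in WT, a log2 difference of 0.44. The WT arrays were tight in both genes, and the highest ara6-1 array was replicate 1 for UGT72E1 and replicate 3 for UGT85A5. Without those arrays the differences were 0.38 and 0.37. The closest relatives of UGT72E1 were near the low end of the signal, UGT72E3 with means of 2.24 in ara6-1 and 1.72 in WT and UGT72E2 with 2.00 in ara6-1 and 1.62 in WT, where the lowest 5% of values on each array ended between 1.54 and 1.68.

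GH3.17 (AT1G28130) conjugates the hormone auxin to an amino acid, which takes it out of the active pool. It had 6.36, 6.37 and 6.51 in ara6-1, against 5.80, 5.996 and 6.24 in WT, a log2 difference of 0.40. This was the smallest difference of all members, the groups were 0.12 apart at their nearest arrays, and without WT replicate 1 it was 0.30. BGLU25 (AT3G03640), a beta-glucosidase by family, had 6.70, 6.48 and 6.25 in ara6-1, against 5.90, 6.08 and 6.22 in WT, a difference of 0.41. Its groups nearly touched, since ara6-1 replicate 3 and WT replicate 3 were almost equal, and the difference was 0.30 without ara6-1 replicate 1.

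Among the annotated members, 3 were enzymes acting on glucans, lipids or wall polymers. The locus AT4G24450 has the RefSeq symbol PWD with the synonyms ATGWD2 and GWD3, of the dikinase family that phosphorylates glucans such as starch. It had 5.08, 5.34 and 5.12 in ara6-1, against 4.61, 4.67 and 4.83 in WT, a log2 difference of 0.48, and the groups were clear of each other in all arrays. The same table gives the symbol PWD to a second locus, AT5G26570, whose means were 8.18 ± 0.14 in ara6-1 and 8.18 ± 0.05 in WT (SD, n = 3 each), a difference of -0.01.

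HOS3-1 (AT4G36830) resembles the yeast elongases that lengthen fatty acids. Its log2 intensities were 5.27, 5.58 and 5.36 in ara6-1, against 4.92, 4.82 and 4.83 in WT, a difference of 0.55 that was at least 0.46 without any single array. TBL28 (AT2G40150) belongs to the TRICHOME BIREFRINGENCE-LIKE family, which adds acetyl groups to wall polysaccharides. It had 5.81, 5.84 and 5.87 in ara6-1, against 5.45, 5.31 and 5.45 in WT, a difference of 0.44. Both groups were tight in TBL28, and the spread within each was smaller than the space between them.

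Among the annotated members, the 2 proteases by family were scpl20 and SBTI1.1. Families of the members known by locus only were not looked up. The serine carboxypeptidase-like gene scpl20 (AT4G12910) had 5.36, 5.63 and 5.58 in ara6-1, against 4.83, 4.87 and 4.74 in WT, a difference of 0.71, and it was among the members with the widest space between the groups. The subtilase gene SBTI1.1 (AT1G01900) had 5.97, 6.25 and 6.39 in ara6-1, against 5.65, 5.88 and 5.80 in WT, a difference of 0.43. In SBTI1.1 the lowest ara6-1 array, replicate 1, lay just above the highest WT array, replicate 2.

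The remaining annotated members act in development, replication, RNA binding and plastids. OPS (AT3G09070), OCTOPUS, a polar membrane protein that promotes phloem differentiation, had 4.31, 4.22 and 3.86 in ara6-1, against 3.23, 3.36 and 3.67 in WT, a difference of 0.71. AT1G66810, with the synonym AtC3H14, encodes a CCCH-type zinc finger protein and had 4.74, 4.19 and 4.26 in ara6-1, against 3.75, 3.47 and 3.83 in WT, a difference of 0.71. Both genes lay near the minimum level of 4, their WT arrays were below it, and ara6-1 replicate 1 was the highest array in both.

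FIB (AT4G04020), a fibrillin that coats the lipid droplets of plastids called plastoglobules, had 9.87, 9.78 and 9.77 in ara6-1, against 9.24, 9.36 and 9.53 in WT, a difference of 0.43. The ara6-1 arrays of FIB lay close together and the WT arrays spread more widely. POLD3 (AT1G78650), a subunit of the DNA polymerase delta that copies DNA, had 5.14, 4.85 and 5.04 in ara6-1, against 4.40, 4.82 and 4.55 in WT, a difference of 0.42. Its ara6-1 replicate 2 and WT replicate 2 were almost equal.

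**Figure D2:**
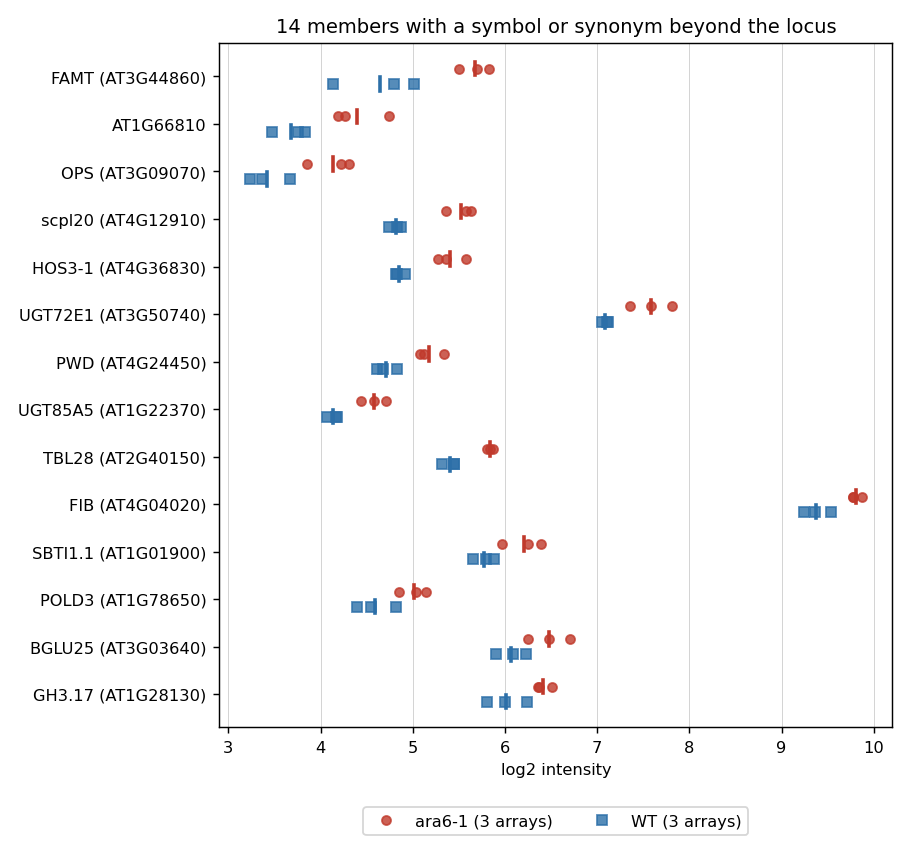
Log2 intensity of the 14 annotated members, with 1 point per array, 3 in ara6-1 (circles) and 3 in WT (squares); short vertical bars are group means. FAMT has the largest difference at 1.02 and GH3.17 the smallest at 0.40, and in BGLU25 and POLD3 the nearest arrays of the groups almost touch.

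When each array was left out in turn, 5 of the 14 annotated members stayed at a difference of 0.4 or more throughout. These were FAMT, AT1G66810, OPS, scpl20 and HOS3-1. The other 9 went under 0.4 at least once, down to 0.30 for BGLU25 and GH3.17.

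Over all 98 members, 48 stayed at 0.4 or more without any single array. The 20 members with the largest differences all did, which follows in part from choosing them by size. Their lowest value was 0.48, in AT2G27340 without ara6-1 replicate 2. FAMT, AT1G66810, OPS and scpl20, described above, are among the 20, and the others are known here by locus only. AT4G01390 had the largest difference of all, with 6.03, 5.64 and 5.12 in ara6-1, against 4.51, 4.82 and 4.35 in WT. Its means were 5.60 ± 0.46 in ara6-1 and 4.56 ± 0.24 in WT (SD, n = 3 each), a difference of 1.04. The ara6-1 arrays were widely spread, with replicate 1 far above replicate 3, and the difference was 0.82 without replicate 1 and 1.28 without replicate 3.

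AT3G19620 had 6.53, 7.44 and 7.26 in ara6-1, against 6.14, 6.13 and 6.24 in WT, a difference of 0.91. Here ara6-1 replicate 1 stood well below the other ara6-1 arrays, the reverse of AT4G01390, while the WT arrays were nearly equal. AT3G25670 had 4.11, 4.52 and 4.19 in ara6-1, against 3.80, 2.70 and 3.61 in WT, also a difference of 0.91. That value rested in part on 1 low WT array: without WT replicate 2 it was 0.57.

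AT1G48580 had 4.92, 5.36 and 5.34 in ara6-1, against 4.55, 4.19 and 4.29 in WT, a difference of 0.86. AT2G48080 had 5.51, 5.88 and 5.84 in ara6-1, against 5.12, 4.94 and 4.98 in WT, a difference of 0.73. AT1G51830 had 6.17, 6.65 and 6.63 in ara6-1, against 5.85, 6.05 and 5.34 in WT, a difference of 0.74. In all 3 genes ara6-1 replicate 1 was the lowest ara6-1 array and the other 2 were almost equal. AT2G27340 had the same order in ara6-1, with 5.50, 6.18 and 5.95, against 5.06, 5.24 and 5.45 in WT, a difference of 0.63, and its groups came within 0.1 of each other.

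The opposite order, with ara6-1 replicate 1 highest, was seen in AT5G04680, AT3G55240, AT1G29020 and AT5G03660. AT5G04680 had 4.93, 4.33 and 4.40 in ara6-1, against 3.38, 4.07 and 3.87 in WT, a difference of 0.78. AT3G55240 had 6.58, 5.98 and 5.71 in ara6-1, against 5.31, 5.62 and 5.0 in WT, also a difference of 0.78. In AT3G55240 the arrays of both groups were far apart and the nearest ones, ara6-1 replicate 3 and WT replicate 2, were close. AT1G29020 had 5.43, 4.75 and 4.69 in ara6-1, against 4.09, 4.38 and 4.26 in WT, a difference of 0.71. AT5G03660 had 4.56, 4.08 and 4.39 in ara6-1, against 3.54, 3.71 and 3.89 in WT, a difference of 0.63. Both genes had a WT group spread over less than 0.4 and an ara6-1 group spread over more.

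In AT4G09500, AT1G06100, AT5G38030 and AT5G39020, ara6-1 replicate 3 was the highest array. AT4G09500 had 4.05, 4.104 and 4.49 in ara6-1, against 3.17, 3.57 and 3.66 in WT, a difference of 0.75. AT1G06100 had 6.72, 6.48 and 6.95 in ara6-1, against 6.35, 5.91 and 5.66 in WT, a difference of 0.74. In both genes the WT arrays were spread more widely than the ara6-1 arrays. AT5G38030 had 4.49, 4.58 and 4.88 in ara6-1, against 3.94, 3.84 and 4.00 in WT, a difference of 0.72. AT5G39020 had 6.76, 6.89 and 7.03 in ara6-1, against 6.28, 5.99 and 6.29 in WT, a difference of 0.70. Both had clear space between the groups.

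AT5G67430 was the most even of the 20 within ara6-1, with 5.55, 5.56 and 5.48 there, against 4.84, 4.64 and 4.97 in WT, a difference of 0.71. Its ara6-1 arrays were within 0.1 of each other and its groups were among the farthest apart of all members.

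**Figure D3:**
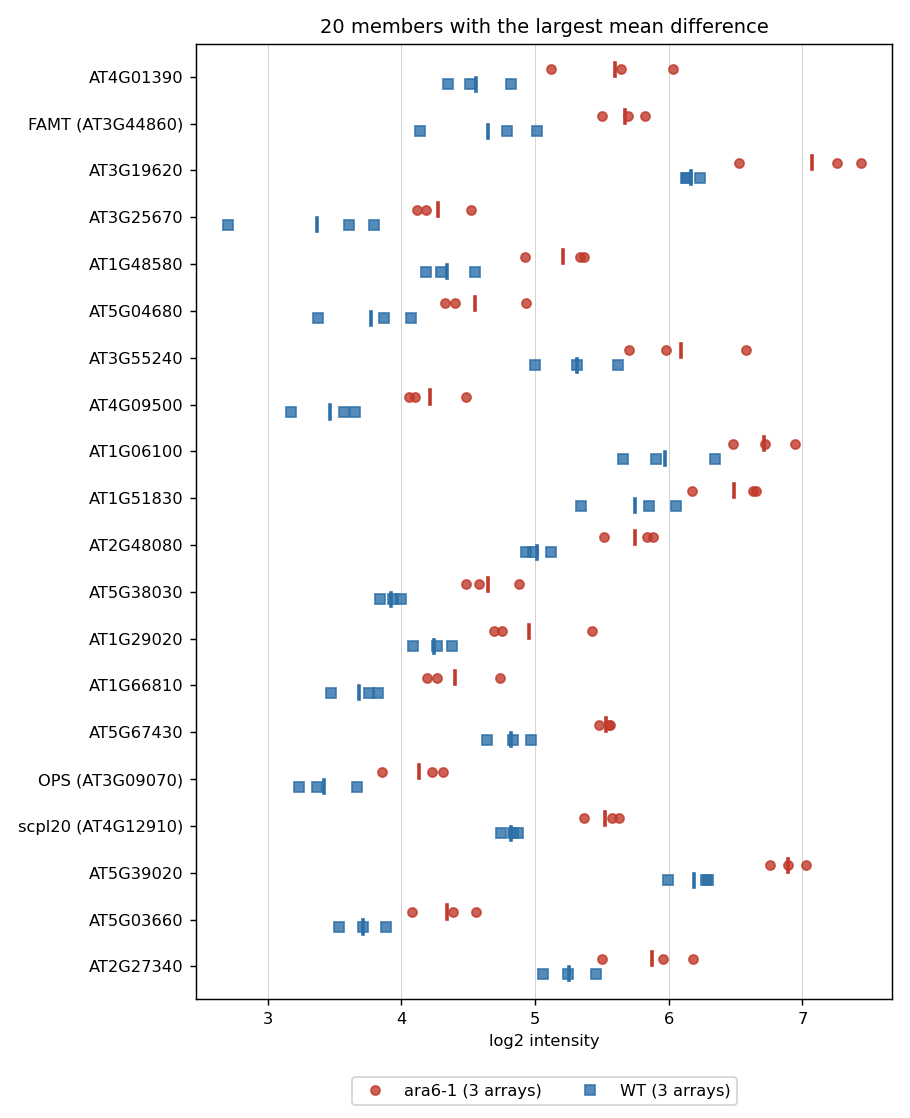
Log2 intensity of the 20 members with the largest mean difference, with 1 point per array, 3 in ara6-1 (circles) and 3 in WT (squares); short vertical bars are group means. The differences run from 1.04 in AT4G01390 to 0.63 in AT2G27340, and the 1 low WT array of AT3G25670 is visible at 2.70.

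The other 68 members, all known here by locus only, had log2 differences between 0.40 and 0.62, and 27 of them stayed at 0.4 or more without any single array. Chromosome 1 held 23 of them. AT1G13750 and AT1G63300 had 0.61, AT1G72700 had 0.60, AT1G63860 had 0.58, AT1G55265 had 0.56, AT1G45010 had 0.55, AT1G78070 had 0.53, AT1G63600 had 0.52 and AT1G70505 had 0.51. AT1G74770, AT1G17450 and AT1G11940 had 0.48, AT1G79620 had 0.47, and AT1G05700 and AT1G01390 had 0.46. The last on this chromosome were AT1G63380, AT1G56670 and AT1G51090 with 0.44, AT1G51850 and AT1G48100 with 0.42, AT1G34040 and AT1G66930 with 0.41 and AT1G07380 with 0.40. AT1G55265 had 9.37, 9.08 and 9.04 in ara6-1, against 8.72, 8.56 and 8.52 in WT, with the WT arrays close together and ara6-1 replicate 1 above the other ara6-1 arrays. Of all 98 members, 11 had a difference that moved by more than 1.5 times when 1 array was left out, among them AT3G25670 above. On chromosome 1, AT1G63600 was at 0.32 without ara6-1 replicate 1 and AT1G66930 at 0.23 without WT replicate 3.

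Chromosome 2 held 9 of the 68. AT2G19650 and AT2G23300 had a difference of 0.51, AT2G39850 had 0.47, AT2G17055, AT2G04860 and AT2G42290 had 0.44, AT2G24250 had 0.42, and AT2G45590 and AT2G23950 had 0.41. AT2G39850 had 8.57, 8.90 and 8.87 in ara6-1, against 8.12, 8.30 and 8.51 in WT, and its nearest arrays were less than 0.1 apart. AT2G42290 was at 0.24 without WT replicate 1.

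Chromosome 3 held 14. AT3G62780 had a difference of 0.62, AT3G58660 had 0.59, AT3G56060 had 0.58, AT3G17130 and AT3G57680 had 0.57, AT3G56080 had 0.55, and AT3G56260, AT3G27400 and AT3G61820 had 0.49. AT3G51350 had 0.46, AT3G09540 had 0.45, AT3G60110 had 0.43, and AT3G03770 and AT3G54830 had 0.41. AT3G09540 had 8.04, 8.24 and 8.18 in ara6-1, against 7.77, 7.62 and 7.71 in WT, and each group was narrower than the space between them. AT3G56060 was at 0.35 without WT replicate 3, AT3G60110 at 0.29 without WT replicate 1 and AT3G54830 at 0.22 without ara6-1 replicate 1.

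Chromosome 4 held 10, with 0.60 in AT4G26660, 0.59 in AT4G35160, 0.54 in AT4G21650, 0.52 in AT4G11190, 0.51 in AT4G19520, 0.49 in AT4G27360, 0.48 in AT4G22790, 0.45 in AT4G32920, 0.44 in AT4G14330 and 0.40 in AT4G14905. AT4G21650 had 10.42, 11.10 and 10.94 in ara6-1, against 10.34, 10.31 and 10.20 in WT. Its ara6-1 replicate 1 was almost level with the WT arrays and the other ara6-1 arrays were well above them. Chromosome 5 held 12, with 0.56 in AT5G41300 and AT5G06800, 0.52 in AT5G43020, 0.50 in AT5G51500, 0.49 in AT5G48320, 0.48 in AT5G41900, 0.47 in AT5G67200, 0.45 in AT5G41020 and AT5G12300, 0.43 in AT5G10410, 0.42 in AT5G59130 and 0.41 in AT5G66420. Without WT replicate 3, AT5G41900 was at 0.24 and AT5G10410 at 0.22. AT5G41020 was at 0.27 without WT replicate 1, and AT5G59130 at 0.28 without ara6-1 replicate 2.

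The space between the groups differed from member to member. The gap, the lowest ara6-1 array minus the highest WT array, had a median of 0.18 on the log2 scale and ranged from 0.01 to 0.51. It was at least 0.2 in 45 members and at least 0.4 in 6, namely AT3G62780, AT5G67430, scpl20, AT5G38030, FAMT and AT5G39020. It was under 0.1 in 31 members. In 15 members the nearest arrays were less than 1 intensity unit apart, and in AT2G24250 they were 0.1 unit apart, the last digit the table holds. The median SD within a group was 0.18 in ara6-1 and 0.18 in WT over the members, against 0.12 in ara6-1 and 0.12 in WT over all named genes with an ara6-1 mean of at least 4. The members were also dimmer, with a median level of 5.53 in ara6-1 and 4.86 in WT. Over those named genes it was 6.11 in ara6-1 and 6.10 in WT, and the part of level in the spread was not tested.

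**Figure D4:**
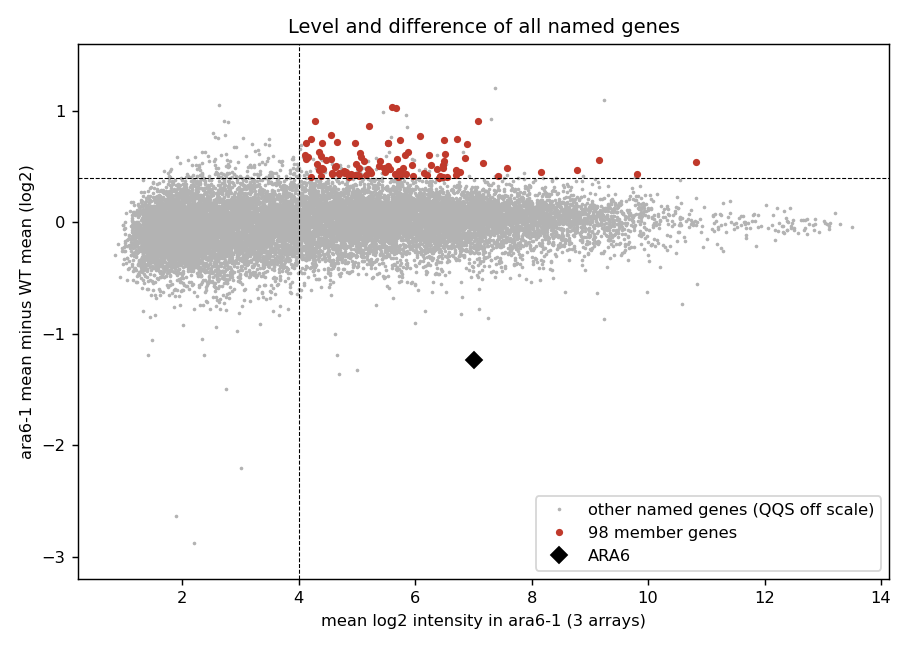
Points are named genes, with the mean log2 intensity over the 3 ara6-1 arrays on the horizontal axis and the log2 difference, ara6-1 minus WT, on the vertical axis; members are marked in colour, ARA6 is the diamond at -1.24, dashed lines mark the minimums of 0.4 and 4, and QQS is off the scale. By the rule all members lie beyond both lines, and 33 of the 98 have an ara6-1 mean under 5.

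The members just inside the difference minimum were GH3.17 with 0.401, AT4G14905 with 0.402 and AT1G07380 with 0.404. Just outside it, with the other requirements met, were pEARLI4 with 0.399, AT5G10830 with 0.398 and AT2G21850 with 0.397. These values differ by far less than the spread between arrays.

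The arrays of a group did not contribute evenly. Within ara6-1, replicate 1 was the lowest array in 54 of the 98 members, replicate 2 in 22 and replicate 3 in 22, and replicate 2 was the highest in 43, replicate 1 in 25 and replicate 3 in 30. Among all named genes with an ara6-1 mean of at least 4, replicate 1 was the lowest in 38.4% and the highest in 38.5%. Replicate 2 was the lowest in 29.8% and the highest in 31.7% of those genes, and replicate 3 in 31.8% and 29.7%. Within WT, replicate 2 was highest in 36 members, or 36.7%, replicate 3 in 33, or 33.7%, and replicate 1 in 29, or 29.6%. These WT shares were near those over the same named genes, 35.6%, 35.7% and 28.7%. Over the tested rows with a mean level above the median, ara6-1 replicate 1 and WT replicate 3 deviated most from their groups. The SD of their deviations was 0.165 and 0.169, against 0.120 to 0.126 in the other 4 arrays. Deviations of ara6-1 replicate 1 and WT replicate 3 correlated at 0.289 across those rows, which are not independent replicates. With both of these arrays left out, an alternative chosen after seeing the data, 75 of the 98 members stayed at a difference of 0.4 or more, AT3G55240 went down to 0.37 and AT2G27340 up to 0.92.

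In limma fitted on all 28501 tested rows, 0 of the 98 members had a Benjamini-Hochberg adjusted p under 0.05. The fit used the same contrast that chose the members, so their unadjusted p-values carry no separate information and are not counted. At an unadjusted p under 0.05, 3.63% of all tested rows were higher in ara6-1. Of all tested rows 2, or 0.00702%, passed the adjusted threshold in the higher direction. They were QQS and a row that names no single gene. An exact permutation test of 3 arrays against 3 cannot go below a two-sided p of 0.10.

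The members were spread over all 5 chromosomes, with 32 on chromosome 1, 12 on chromosome 2, 21 on chromosome 3, 16 on chromosome 4 and 17 on chromosome 5. As shares, chromosome 1 held 32.7% of the members and 25.6% of named genes with an ara6-1 mean of at least 4. Chromosome 2 held 12.2% of the members and 15.1% of those genes, and chromosome 3 held 21.4% and 20.1%. Chromosome 4 held 16.3% of the members and 14.7% of those genes, and chromosome 5 held 17.3% and 23.2%. ARA6 (AT3G54840) lies on chromosome 3. Counted in annotated gene entries of the RefSeq TAIR10.1 order, 8 members, or 8.16%, lay within 500 entries on either side of ARA6, where 3.36% of named genes with an ara6-1 mean of at least 4 lay. Of the 130 genes lower in ara6-1 by the mirrored rule, ARA6 not counted, 4, or 3.08%, lay in the same window. Within 100 entries there were 2 members, or 2.04%, with 0.572% of named genes at that level and 1 of the 130 lower genes. Within 1000 entries there were 11 members, or 11.2%, with 6.19% of named genes at that level and 12 of the 130 lower genes, or 9.23%, so in this wider window both the members and the lower genes were above the share of all genes. These windows were chosen after seeing the data, and whether members gather there was not tested.

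The member nearest to ARA6 was AT3G54830, with 2 other annotated entries between them. It had log2 intensities of 6.80, 6.23 and 6.24 in ara6-1, against 6.11, 6.04 and 5.89 in WT, a difference of 0.41 that was 0.22 without ara6-1 replicate 1. On the other side of ARA6, with 3 entries between, AT3G54880 had 6.41, 6.15 and 6.32 in ara6-1, against 6.96, 6.85 and 6.95 in WT. AT3G54880 was lower in every ara6-1 array, with a difference of -0.63. The other members in the window were AT3G51350 on one side, and on the other AT3G55240, AT3G56060, AT3G56080, AT3G56260, AT3G57680 and AT3G58660. With 1 mutant line, the loss of ARA6 and any other difference between the lines cannot be told apart.

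**Figure D5:**
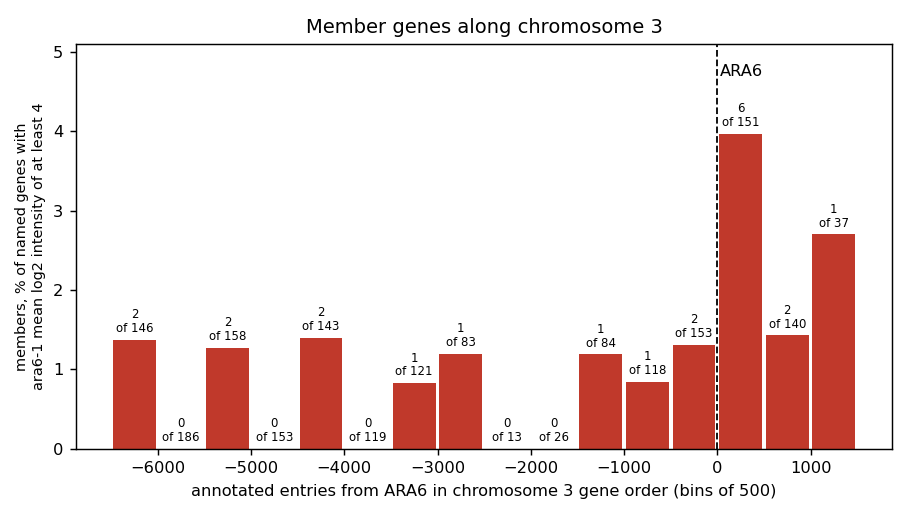
Bars give the members as a percentage of the named genes with an ara6-1 mean of at least 4 (vertical axis), in bins of 500 annotated entries along chromosome 3 counted from ARA6, the dashed line (horizontal axis); the counts stand above each bar. The bin from 0 to 500 entries after ARA6 holds 6 members out of 151 such genes, or 3.97%.

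In 3 places, 2 members lay within 10 annotated entries of each other. AT3G56060 had 6.77, 6.95 and 6.83 in ara6-1, against 6.39, 6.62 and 5.81 in WT, and its neighbour AT3G56080 had 6.21, 6.76 and 6.53 in ara6-1, against 5.76, 6.0 and 6.08 in WT. A single entry, with no measured gene name, lies between them. WT replicate 3 was the lowest WT array in the first gene and the highest in the second. AT1G51830 and AT1G51850, with a difference of 0.74 and 0.42, are separated by AT1G51840. This gene had 6.90, 7.61 and 7.40 in ara6-1, against 6.30, 6.92 and 5.90 in WT, a difference of 0.93, larger than in both members beside it. It was not a member because ara6-1 replicate 1 lay just below WT replicate 2. AT1G51850 had 5.21, 4.80 and 4.87 in ara6-1, against 4.50, 4.57 and 4.54 in WT. The third pair, AT1G63300 and AT1G63380, has 7 named genes between its members with differences from -0.13 to 0.35.

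Of 17 lists made from symbol stems, 14 had measured genes, 307 in all, and 4 of these 307 were members. The stems match gene symbols only, so the 84 members known by locus only could not enter any list, whatever their family. A shared stem is not always a shared family: the list for cytochromes P450 also took in the cyclophilins CYP71 and CYP59, the list for ubiquitin ligases took in AtLEA4-1, ATLIG4 and ATLP-1, and the only gene of the aquaporin list was PIPK11, a lipid kinase. In limma, 0 of the 307 passed an adjusted p of 0.05 in either direction; 21 were higher and 19 lower at an unadjusted p under 0.05. Over all named genes, 3.32% were higher and 5.46% lower at that unadjusted threshold. The 4 members among the 307 were chosen as higher in this same contrast. The median difference was 0.05 over the 307 genes and -0.01 over all named genes.

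The UGT stem of the glycosyltransferase list gave 2 members, UGT72E1 and UGT85A5, out of 51 measured genes with such symbols. The median difference of the 51 was 0.09. Of the 51, 10 were higher and 3 lower at an unadjusted p under 0.05 in limma, against 3.32% and 5.46% of all named genes. The smallest adjusted p in limma was 0.506. Members in a list were chosen as higher in this same contrast, so the counts of higher genes are not independent of the rule. The serine carboxypeptidase-like genes gave scpl20 out of 32, with a median of 0.08, 2 higher and 3 lower at the unadjusted threshold. The auxin genes gave GH3.17 out of 13, with a median of -0.05. The lists with 96 genes of transcription factor stems, 36 of cell wall stems and 28 of the stem CYP held 0 members. Members known by locus only could not be counted in these families. Another 3 stems were added after the members' names had been seen: TBL28 was 1 of 23 TBL genes with a median of 0.08, BGLU25 1 of 22 with a median of 0.01, and SBTI1.1 1 of 8 with a median of -0.06.

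The labelled tissue was set against markers of plant organs. Of 5 leaf markers, 2 were measured, LHCB4.1 and SBPASE, and their summed intensity was 3541 to 3808 in ara6-1 and 3325 to 3575 in WT. Of 5 root markers, 2 were measured, PYK10 and EXPA7, with a summed intensity of 5065 to 5307 in ara6-1 and 4777 to 4903 in WT. Almost all of the root sum was PYK10, which had 5009 to 5262 in ara6-1 and 4731 to 4860 in WT, with no overlap, while EXPA7 overlapped, with 45.1 to 55.6 in ara6-1 and 43.6 to 51.7 in WT. LHCB4.1 did not overlap, with 897 to 1057 in ara6-1 and 846 to 870 in WT, and SBPASE did. Both non-overlapping markers were higher in ara6-1; of all named genes with an ara6-1 mean of at least 4, 10.4% did not overlap in that direction. Of 5 flower markers only AMS was measured, with 5.5 to 7.5 in ara6-1 and 6.5 to 14.1 in WT, near the low end of the signal, and of 5 seed markers 0 were measured. The part of these organ markers in the members' values was not tested.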

How the data were processed

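Total RNA of 6 whole-plant samples, 3 ara6-1 and 3 WT, was hybridized to Affymetrix arrays after biotin labelling, per the labels' protocols. The authors deposited a single table of intensity values on a linear scale. Affymetrix Expression Console 1.3 is the tool listed per the submitters' processing notes. How probes were summarized and normalized, and on which genome build, is not given in the sources used here. Array medians of 28.8 to 29.2 were nearly equal, so the deposited intensity values were not normalized again. Depth has no meaning for arrays; the number of arrays limits the precision.

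The table has 38408 rows. Tests used the 28501 whose values have at most 1 decimal, and 9907 with more decimals, of a kind no source names, were left out. Of the tested rows 16704 name 1 gene, 744 several, and 11053 are not listed in the platform's probe table. Symbols were taken from RefSeq (TAIR10.1), which holds 16574 of the 16722 single-gene probe sets. The 16704 rows stand for 16542 genes, each represented by its row with the highest mean. Of all tested rows 542 had values identical to another row, with 0 members among them. Positions are given by gene order alone, since the table names no build.

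Intensities were turned into log2 here. The comparison of all tested rows used R 4.3.3 and limma 3.58.1 (linear model with empirical Bayes moderation, two-sided, Benjamini-Hochberg). It was first run on simulated data with planted changes larger than nearly all of the members' differences. That run required only that the fitted changes come near the planted ones, and it did not cover changes of the members' usual size. The members and lists were chosen with earlier results of these data known. Every member is named with its difference; values in every array go to the 20 largest and to members sharing a stem list. The values of the other annotated members, and those of a few more members, were added after they had been seen. Families by product name, promoter motifs and sequences were not analysed here. Over the tested rows with a mean level above the median, same-numbered ara6-1 and WT arrays had deviations that correlated at -0.196, 0.174 and -0.150. The replicate numbers were therefore not taken to pair samples. The alternatives were other minimums, other scalings, other limma settings and arrays left out.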

Additional observations from a re-analysis of the deposited data

Results flagged for a closer look

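Rows outside the named genes also met the numbers of the rule. Among the 11797 tested rows that name no single gene, 106, or 0.899%, were higher in every ara6-1 array with a log2 difference of at least 0.4 and an ara6-1 mean of at least 4. They were singled out because the comparisons above use named genes only. Row 13545569 had the largest difference, 4.87, and rows 13351842 and 13351866 held identical values with a difference of 1.01. Among the 9907 rows written with more decimals, which were not tested, 87, or 0.878%, met the same numbers. What these rows measure is not known here, and no cause was tested.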

How the results depend on the processing

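With 98 members as reported, 228 genes met the rule at a difference minimum of 0.3 and 47 at 0.5, all 47 of them members. A level minimum of 5 gave 65, all members, and no level minimum gave 162. Leaving out 1 array at a time gave 132 to 270 genes, with 76 to 92 of the members kept and a median difference of 0.48 to 0.53, and fewer arrays make non-overlap easier to meet. Leaving out both arrays that stand apart, chosen after seeing the data, gave 284 genes, 75 of them members. Quantile normalization kept 89 members and median centring 94. Of 198 values of 22 single members under these alternatives, 0 reversed. These members were those with the largest differences and the UGT members. With arrays left out, no sign could reverse, because the rule put every ara6-1 array above every WT array. AT3G55240 moved to 0.37 and AT2G27340 to 0.92 without both arrays that stand apart. Higher rows past the adjusted p in limma numbered 2 as reported, 5 with a prior variance that follows intensity, 0 with no moderation (1283 at an unadjusted p under 0.05) and 1 without both arrays that stand apart; none of the 5 was a member. With the replicate number as a block the count was 2, and the numbers are not taken to pair samples.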
